A study of Homo sapiens with 48 samples.

Results

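The genes described here are those whose mRNA still stood near its starting level after 24 h of IRE1 silencing and had fallen by 48 h, in each of 2 shIRE1 clones of AMO1, a human multiple myeloma (plasma cell cancer) cell line. They were chosen on the deposited log2 CPM (CPM is the read count of a gene scaled to the size of its library, and a step of 1 in log2 is a doubling), averaged over the 3 replicates of a group. In shIRE1 Cl.1 and in shIRE1 Cl.3 alike a gene had to average at least 1 log2 CPM at 0 h, to differ from 0 h by no more than 0.35 at 24 h in either direction, and to lie at or below -0.8 against 0 h at 48 h. Of 58302 genes in the count table, 18401 had log2 values, 11643 passed the 0 h minimum in both clones, and 14 met every criterion, which is 0.12% of the 11643. The 14 genes were NR4A1, IFIT3, ANKRD37, IGKV3-20, MYH11, SPIB, SPRY2, LNP1, SLC16A14, AL163051.2, CYP51A1P2, FZD4, SH2B2 and MMP15. Because the rule used the 0, 24 and 48 h values of both shIRE1 clones, those values are given as a description without a test, and so are the 72 h values, which are set against the same 0 h libraries. The shXBP1 clones did not enter the rule, and there the genes were tested.

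The 48 poly(A) RNA libraries came from 4 single-cell clones of AMO1, each sampled before and 24, 48 and 72 h after doxycycline (Dox) at 0.2 µg/ml, with 3 flasks per clone and time. Every clone carried Dox-inducible short hairpin RNAs (shRNAs), which the genotype labels give as IRE1 sh7,8,9 for shIRE1 Cl.1 and Cl.3 and as XBP1 sh4,6,7 for shXBP1 Cl.1 and Cl.18. A clone descends from a single cell, so the 3 flasks of a clone are replicates of that clone only. The 0 h libraries were untreated, and each clone is compared only with its own 0 h libraries, without a control hairpin, so an effect of Dox or of expressing a hairpin cannot be told apart from silencing. In bulk RNA, fewer cells expressing a gene and less RNA per cell cannot be told apart either.

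IRE1, encoded by ERN1, is a sensor in the membrane of the endoplasmic reticulum (ER) that carries a kinase and an RNase domain. When unfolded protein accumulates, the RNase removes an intron from XBP1 mRNA, and the resulting transcription factor raises genes for folding, glycosylation and transport of secreted protein. Plasma cells secrete antibody in bulk and depend on this branch for that output. A gene that moves late after a knockdown can lie several steps downstream of the silenced protein, and a comparison of shIRE1 with shXBP1 clones shows whether silencing of the transcription factor is followed by the same course. The 14 genes span several roles. NR4A1 is an orphan nuclear receptor induced within minutes by mitogens and antigen receptors, IFIT3 is an interferon-induced antiviral protein, and ANKRD37 is an ankyrin repeat protein and a known target of the hypoxia-inducible factor HIF-1. SPIB is an ETS-family transcription factor of the B lineage, and IGKV3-20 is a variable segment of the immunoglobulin kappa light chain. SPRY2 is a feedback inhibitor of receptor tyrosine kinase signalling to ERK, SH2B2 is an adaptor of receptor tyrosine kinases, and FZD4 is a frizzled receptor for Wnt ligands and norrin. MYH11 is the smooth muscle myosin heavy chain, MMP15 a membrane-anchored matrix metalloproteinase, SLC16A14 a member of the monocarboxylate transporter family, CYP51A1P2 a processed pseudogene of the sterol demethylase CYP51A1, and LNP1 a partner of NUP98 in a leukaemia fusion. AL163051.2 is named only.

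Promoter sequences are shown for the 3 genes around which the results turn, NR4A1 with the deepest fall, IFIT3 with a fall in shXBP1 Cl.1 as well, and ANKRD37 with the opposite course in both shXBP1 clones. Each is the 250 bases before a RefSeq transcript start on GRCh38.p14, written 5′ to 3′ on the gene's strand, which is + for all 3. In both IFIT3 windows, chr10:89327747-89327996 and chr10:89332279-89332528, capitals mark the core of the interferon-stimulated response element (GAAANNGAAA, here on the reverse strand). In the ANKRD37 window, chr4:185396591-185396840, capitals mark ACGTG, the core bound by HIF-1, with 3 matches of which 2 overlap on opposite strands. For NR4A1, capitals mark the GC box GGGCGG in the window of the downstream start, chr12:52037465-52037714. The window of its upstream start, chr12:52022582-52022831, holds 0 matches and is not printed.
IFIT3, upstream start: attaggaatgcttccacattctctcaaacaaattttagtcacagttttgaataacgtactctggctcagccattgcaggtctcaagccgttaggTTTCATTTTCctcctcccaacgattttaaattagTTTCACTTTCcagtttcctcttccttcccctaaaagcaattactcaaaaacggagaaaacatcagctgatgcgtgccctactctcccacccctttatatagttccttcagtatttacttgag
IFIT3, downstream start: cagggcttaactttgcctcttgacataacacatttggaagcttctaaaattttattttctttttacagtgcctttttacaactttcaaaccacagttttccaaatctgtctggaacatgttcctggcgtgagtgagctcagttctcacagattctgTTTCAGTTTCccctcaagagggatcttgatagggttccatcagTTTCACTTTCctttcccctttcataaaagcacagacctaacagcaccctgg
ANKRD37: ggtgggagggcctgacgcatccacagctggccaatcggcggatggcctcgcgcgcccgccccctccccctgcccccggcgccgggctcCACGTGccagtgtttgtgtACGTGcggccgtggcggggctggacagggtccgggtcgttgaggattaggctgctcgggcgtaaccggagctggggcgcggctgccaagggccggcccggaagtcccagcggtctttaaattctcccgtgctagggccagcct
NR4A1, downstream start: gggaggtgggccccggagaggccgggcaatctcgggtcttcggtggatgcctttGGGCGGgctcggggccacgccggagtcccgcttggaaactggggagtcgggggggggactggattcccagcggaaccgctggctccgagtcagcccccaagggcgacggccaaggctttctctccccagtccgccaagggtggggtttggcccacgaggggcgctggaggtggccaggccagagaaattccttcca
A promoter was at hand for 10 of the 14 genes, in 14 windows. Of these 10 genes, only IFIT3 held GAAANNGAAA, which 3.02% of 34943 promoters of this length hold on either strand, and only IFIT3 held the ETS-IRF composite GGAANNGAAA (2.41% of promoters), a motif that differs from the former in its first letters and overlaps a match of it in the downstream window. Only ANKRD37 held ACGTG (18.5% of promoters). The cyclic AMP element TGACGTCA (1.63%), the XBP1-type element TGACGTGG (0.615%, which contains ACGTG) and the CArG box of serum response factor (1.16%) were found in none of the 10. The GC box was in 6 of the 10 genes (42.5% of promoters) and CCAAT in 5 (32.0%). A match is a run of letters in this window and no evidence of binding.

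The libraries held 19177855 to 40767202 reads assigned to genes. ERN1 fell from 151 to 157 CPM over the 0 h libraries of shIRE1 Cl.1 to 126 to 128 at 24 h, 93.2 to 103 at 48 h and 101 to 105 at 72 h. In shIRE1 Cl.3 it fell further, from 417 to 450 CPM at 0 h to 143 to 146, 119 to 127 and 123 to 128. XBP1 fell from 158 to 175 CPM to 33.4 to 34.4 at 72 h in shXBP1 Cl.1, and from 165 to 177 to 31.5 to 41.6 in shXBP1 Cl.18. ERN1 did not stay level in these clones. It rose from 186 to 195 CPM at 0 h to 310 to 314 at 72 h in shXBP1 Cl.1. In shXBP1 Cl.18 it fell from 408 to 417 CPM at 0 h to 330 to 347 at 48 h. All 9 plasma cell markers exceeded 1 CPM in every library, while monocyte and erythroid markers stayed below 1 CPM in every library. MS4A1 of the B cell list reached 2.30 CPM, COL1A1 of the fibroblast list 1.26 and KRT8 of the epithelial list 1.67, and CD3E of the T cell list stood at 4.57 to 17.5 CPM with CD3D and CD2 at or near 0. The library labelled shXBP1 Cl.18, 72 h, replicate 3 stood apart: its correlation with the other libraries of its group was 0.983 against 0.994 with shXBP1 Cl.1 at 72 h. The other libraries of all times gave 77 genes that separate the shXBP1 clones. Over these genes the library lay at a median of 0.995 on a scale where Cl.1 is 1 and Cl.18 is 0. Its part in a 72 h result of Cl.18 is given by a second fit without it. The library labelled shIRE1 Cl.3, 24 h, replicate 1 was also closer to shIRE1 Cl.1 at the same time (0.993) than to its own group (0.991). It entered the rule, and without it IFIT3 and MMP15 missed the 24 h band and 12 genes remained.

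Falling only late was an uncommon course. Of the 11643 genes, 4901 stayed within the 24 h band in both shIRE1 clones, and 712 lay at or below -0.8 at 48 h in both. Of these 712, 391 (54.9%) were already at or below -0.8 at 24 h in both clones, and the 14 late-falling genes made up 1.97%. The rule met by 1 clone alone gave 54 genes in Cl.1 and 151 in Cl.3. The mirror rule, a rise of at least 0.8 at 48 h after the same 24 h band, gave 19 genes.

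**Figure D1:**
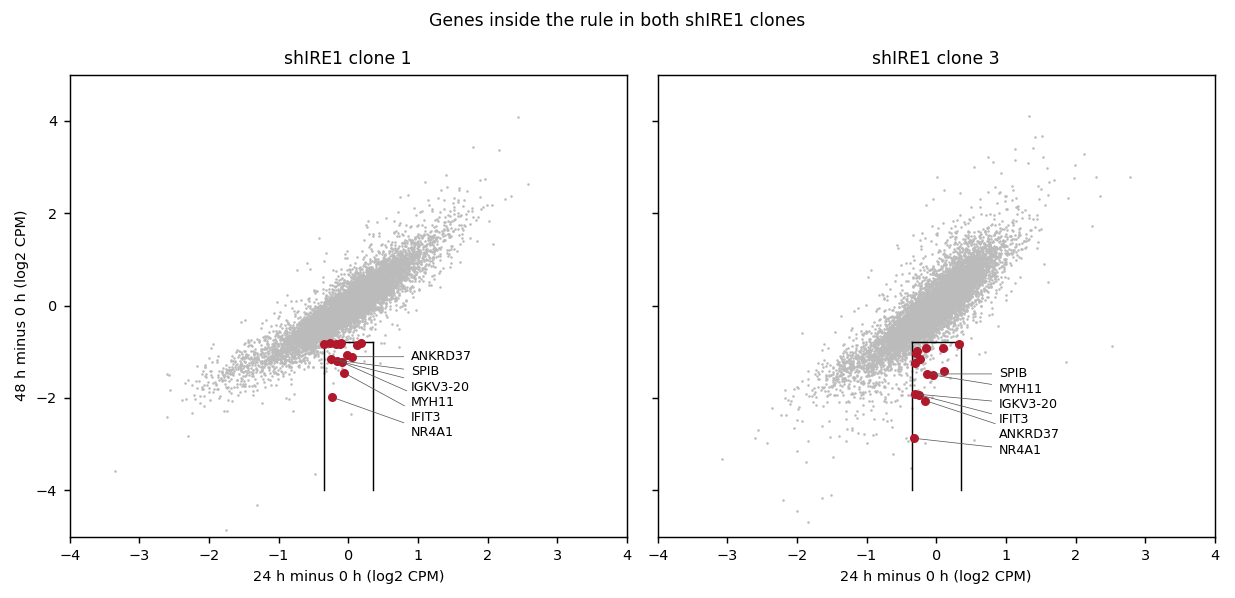
Each point is a gene with a 0 h mean of at least 1 log2 CPM in both shIRE1 clones, with its 24 h change on the x axis and its 48 h change on the y axis (log2 CPM, mean of 3 libraries, shIRE1 Cl.1 left and Cl.3 right). The black outline is the range the rule admits in each clone, red points are the 14 genes inside it in both clones, grey points are the other genes, and 5 values lie beyond the axes. Most grey points run along a diagonal, so a gene with a large change at 48 h mostly had part of it at 24 h, and the red points hang below that band.

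The thresholds cut through a continuum. Just inside the 48 h threshold lay SH2B2 (48 h minus 0 h, -0.81 in Cl.1 and -0.92 in Cl.3), FZD4 (-0.81 and -0.99) and LNP1 (-0.81 and -1.24). Just outside it lay LMAN2 (-0.80 in both, above the threshold before rounding), LY6E (-0.78 and -0.84) and EPHX1 (-0.78 and -0.79). At the 24 h band the nearest genes inside were NR4A1, MMP15 and CYP51A1P2, and the nearest outside were ERP44 (24 h minus 0 h, -0.36 in Cl.1 and -0.33 in Cl.3), NES (0.22 and -0.37) and MAFF (-0.33 and -0.37). NES, an intermediate filament gene, fell by 3.53 at 48 h in Cl.3, further than any of the 14 genes there, and was kept out by its 24 h value in that clone alone.

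Among the 14 genes the 48 h change ran from -1.99 to -0.81 in Cl.1 (median -0.96) and from -2.87 to -0.84 in Cl.3 (median -1.32), while the median over the 11643 genes was -0.05 and -0.04. The fall was larger in Cl.3 than in Cl.1 for 12 of the 14 genes. At 24 h the medians of the 14 genes were -0.11 and -0.19. At 72 h, 11 of the 14 genes still lay at or below -0.8 in both clones, which 6.27% of the 11643 genes did. The rule had placed the 14 genes there at 48 h against the same 0 h libraries. A larger share than among all genes is therefore built in. Between 48 and 72 h 5 genes moved up in both clones and 4 moved down in both. The recovery was largest for IFIT3, which stood 0.56 higher at 72 h than at 48 h on the average of the clones. The further fall was largest for NR4A1, 0.26 lower on the same average. It came from Cl.1, at -0.51, against -0.004 in Cl.3.

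**Figure D2:**
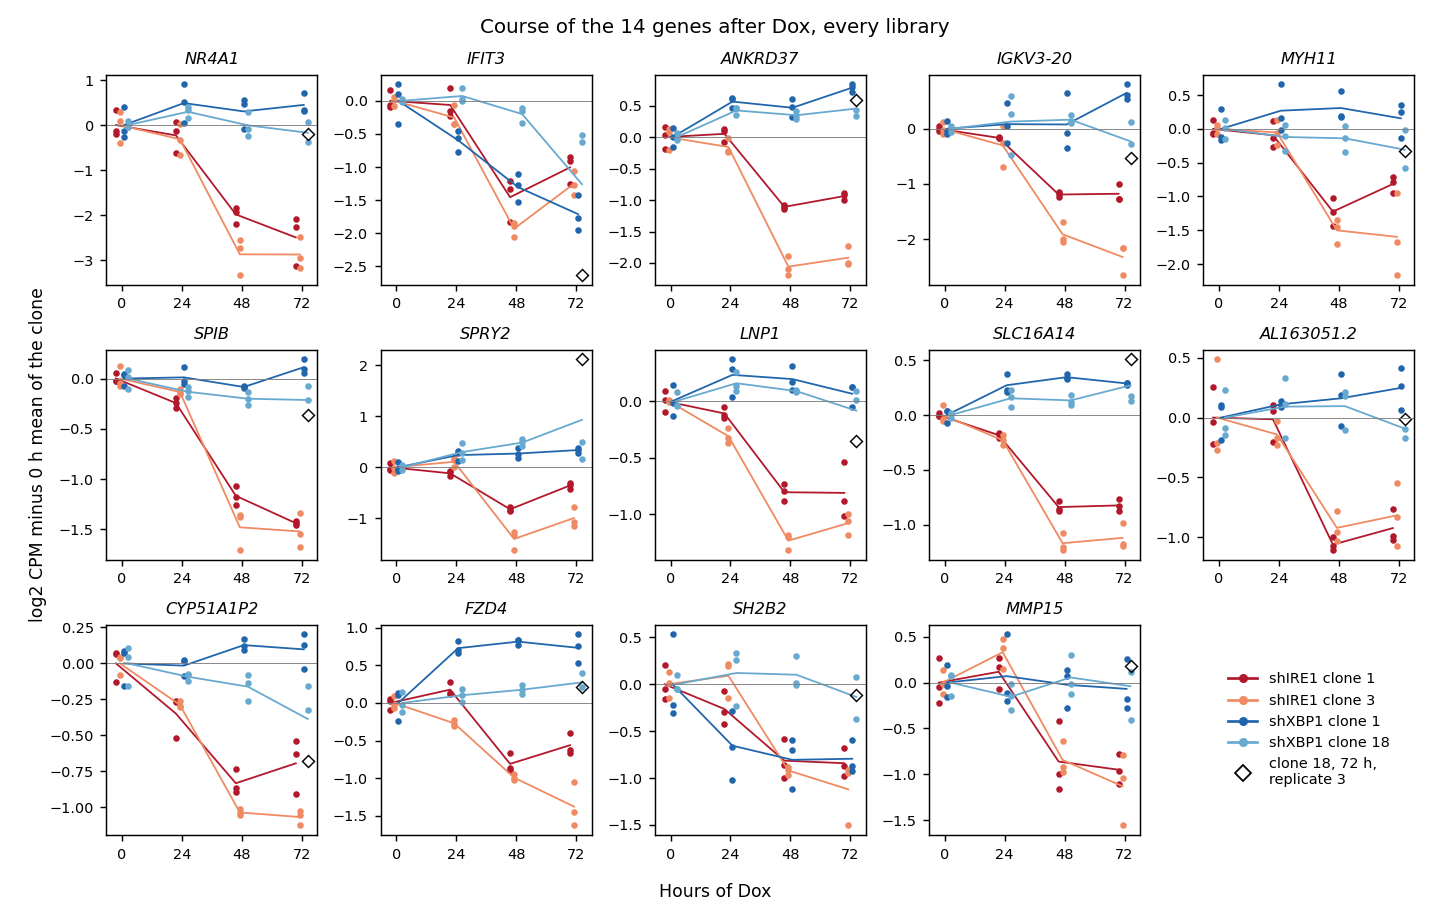
Each panel shows 1 of the 14 genes, with hours of Dox on the x axis and log2 CPM minus the 0 h mean of the same clone on the y axis. Points are single libraries (3 per clone and time), lines join group means, and the open diamond is the library labelled shXBP1 Cl.18, 72 h, replicate 3. Lines of the shIRE1 clones (red, orange) stay within 0.35 of 0 at 24 h and lie at or below -0.8 at 48 h in every panel, as the rule requires, while those of the shXBP1 clones (blue) follow no common course, with IFIT3 and SH2B2 falling in Cl.1 and ANKRD37 rising in both.

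NR4A1 fell furthest. In shIRE1 Cl.1 its log2 CPM was 2.11, 2.04 and 2.57 in the 0 h libraries, 1.62, 2.11 and 2.30 at 24 h, 0.32, 0.05 and 0.39 at 48 h and 0.15, -0.02 and -0.90 at 72 h. In Cl.3 the values were 1.95, 2.44 and 2.63, then 1.69, 2.37 and 2.02, then -0.99, -0.21 and -0.39, and -0.15, -0.62 and -0.84 at 72 h. The 24 h libraries overlapped those of 0 h in both clones, and every 48 and 72 h library lay below every earlier library. The mean change at 48 h was -1.99 in Cl.1 and -2.87 in Cl.3, and at 72 h -2.50 and -2.88. In the shXBP1 clones NR4A1 did not follow this course: it ran from 2.50 to 3.18 at 0 h and from 3.08 to 3.47 at 72 h in Cl.1, and from 3.20 to 3.35 and from 2.88 to 3.32 in Cl.18. Neither 72 h change passed the test (0.43 ± 0.247, adjusted p = 0.196 in Cl.1, -0.16 ± 0.147, adjusted p = 0.534 in Cl.18, and -0.13 ± 0.159, adjusted p = 0.676 without replicate 3). Of the other NR4A receptors, NR4A2 fell in both shIRE1 clones at 48 h (-0.72 ± 0.184, adjusted p = 0.00206 in Cl.1 and -0.74 ± 0.203, adjusted p = 0.00536 in Cl.3, edgeR), while NR4A3, which did not reach the 0 h minimum, rose (0.95 ± 0.215, adjusted p = 0.000757 and 0.66 ± 0.249, adjusted p = 0.0321). Of 14 other immediate early genes tested, such as EGR1 and FOS, 10 were lower and 2 higher in Cl.1 at 48 h (all genes: 31.5% lower, 33.9% higher), and 10 were lower and 1 higher in Cl.3 (all genes: 31.6% lower, 31.6% higher). At 48 h in shXBP1 Cl.1 10 of the 14 were lower and 0 higher (all genes: 15.5% lower, 16.6% higher), as many lower as in each shIRE1 clone. In Cl.18 0 were lower and 3 higher at 48 h (all genes: 3.5% lower, 2.28% higher). In shXBP1 Cl.1 at 72 h 7 of the 14 were lower and 0 higher (all genes: 16.8% each way), and in Cl.18 1 was lower and 2 higher (all genes: 5.55% lower, 4.41% higher). EGR1 shows how far the clones could differ: its 24 h change was -1.76 in shIRE1 Cl.1 and 2.52 in Cl.3. Reads of NR4A1 numbered 12 to 508 per library, and the gene (chr12:52022832-52059507, + strand, GENCODE 44 on GRCh38) overlaps NR4A1AS on the opposite strand. Whether strand was used in counting was not stated, so reads of the pair cannot be told apart.

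IFIT3 belongs to the interferon-induced IFIT family, some of whose proteins bind foreign RNA. Its log2 CPM in shIRE1 Cl.1 was 2.40, 2.66 and 2.44 at 0 h, 2.26, 2.69 and 2.35 at 24 h, 0.67, 1.17 and 1.29 at 48 h and 1.64, 1.24 and 1.59 at 72 h. In Cl.3 it was 3.05, 2.96 and 3.10 at 0 h, 2.98, 2.69 and 2.69 at 24 h, 1.19, 1.14 and 0.98 at 48 h and 1.62, 1.77 and 1.98 at 72 h. Libraries of 24 h overlapped those of 0 h in both clones, those of 48 h were the lowest as a group, and those of 72 h had come part of the way back. The mean change was -1.45 and -1.93 at 48 h and -1.01 and -1.25 at 72 h. In shXBP1 Cl.1 IFIT3 fell at all 3 times, as SH2B2 alone of the other late-falling genes also did. There its values were 2.17, 2.78 and 2.63 at 0 h, 2.08, 1.75 and 1.97 at 24 h, 0.99, 1.25 and 1.42 at 48 h and 0.58, 1.11 and 0.76 at 72 h, and each later group lay below every 0 h library. The change grew with time, from -0.62 ± 0.173, adjusted p = 0.0203 at 24 h to -1.35 ± 0.187, adjusted p = 0.000325 at 48 h and -1.75 ± 0.193, adjusted p = 5.43e-05 at 72 h. The 24 h call was lost in 4 of 12 fits with 1 library left out (without 0 h replicate 2 or 3, or 24 h replicate 2 or 3) and with only the 6 libraries compared (edgeR adjusted p = 0.0609). In shXBP1 Cl.18 the values were 3.86, 3.85 and 3.90 at 0 h, 3.90, 4.06 and 3.87 at 24 h, 3.72, 3.76 and 3.53 at 48 h and 3.24, 3.35 and 1.24 at 72 h. The last of the 72 h values is the library that stood apart, and it lay far below the other two and just above the 72 h libraries of Cl.1. With it the 72 h change missed the threshold (-1.02 ± 0.338, adjusted p = 0.0719), and without it a smaller fall passed (-0.58 ± 0.0989, adjusted p = 0.00202). Without that library the response was also weaker in Cl.18 than in Cl.1, by 1.15 ± 0.197 (adjusted p = 0.000302) at 48 h and 1.17 ± 0.213 (adjusted p = 0.000636) at 72 h. With it the differences were 1.15 ± 0.444 (adjusted p = 0.0729) and 0.74 ± 0.458 (adjusted p = 0.264).

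The rest of the IFIT family moved with IFIT3 in part. IFIT1, which did not reach the 0 h minimum, fell in shIRE1 Cl.1 at 48 h (-1.29 ± 0.25, adjusted p = 0.000173) and did not pass the test in Cl.3 (-0.17 ± 0.234, adjusted p = 0.56). IFIT2, also under the minimum, did the reverse (-0.30 ± 0.18, adjusted p = 0.154 in Cl.1 and -1.74 ± 0.146, adjusted p = 6.6e-08 in Cl.3). IFIT5, under the minimum too, rose in both (2.23 ± 0.227, adjusted p = 6.65e-08 and 4.07 ± 0.203, adjusted p = 1.82e-10). Of the other IFIT genes, 2 were tested in shXBP1 Cl.1, and 0 were lower or higher at 72 h (all genes: 16.8% each way). The mean log2 CPM changes there at 72 h were -0.78 for IFIT1, -0.55 for IFIT2 and -1.03 for IFIT5. Their 0 h means were low, at -0.75, 0.80 and -1.54. In shXBP1 Cl.18 at 72 h IFIT1 and IFIT2 missed the threshold with replicate 3 (-1.11 ± 0.361, adjusted p = 0.0688 and -1.03 ± 0.36, adjusted p = 0.0853), and without it IFIT2 was lower (-0.57 ± 0.129, adjusted p = 0.015) while IFIT1 still missed it (-0.61 ± 0.18, adjusted p = 0.0537). In the interferon and antigen presentation list, IFIT3 was the gene with the lowest 48 h change of 23 with a sufficient 0 h level in both shIRE1 clones, where the list medians were 0.67 in Cl.1 and 0.82 in Cl.3. The rule chose IFIT3 on this change, so its low position there is partly built in. Of the other 30 genes of the list tested, 2 were lower and 23 higher in Cl.1 (all genes: 31.5% lower, 33.9% higher). In Cl.3 2 were lower and 22 higher (all genes: 31.6% each way). MX1, an antiviral GTPase, was among those that rose (2.04 ± 0.363, adjusted p = 7.05e-05 in Cl.1 and 4.45 ± 0.382, adjusted p = 8.51e-08 in Cl.3). Its 0 h means were low, at -2.16 log2 CPM in Cl.1 and -2.74 in Cl.3, under the minimum. IFIT3 lies at chr10:89327307-89377473 on the + strand and overlaps LIPA on the opposite strand and the pseudogene IFIT6P. LIPA did not fall with it, at 0.25 in Cl.1 and -0.01 in Cl.3 at 48 h.

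ANKRD37 took opposite courses in the shIRE1 and shXBP1 clones. Its log2 CPM in shIRE1 Cl.1 was 4.17, 3.95 and 4.30 at 0 h, 4.28, 4.06 and 4.24 at 24 h, 3.04, 2.99 and 3.07 at 48 h and 3.25, 3.22 and 3.14 at 72 h. In Cl.3 it was 4.71, 4.43 and 4.76 at 0 h, 4.63, 4.41 and 4.39 at 24 h, 2.44, 2.53 and 2.75 at 48 h and 2.62, 2.63 and 2.90 at 72 h. The 24 h libraries overlapped those of 0 h in both clones, and all libraries of 48 and 72 h lay below all earlier ones. The 48 h change was -1.11 in Cl.1 and -2.06 in Cl.3. In shXBP1 Cl.1 the values were 4.66, 4.81 and 4.51 at 0 h and 5.51, 5.46 and 5.38 at 72 h, and in Cl.18 4.77, 4.69 and 4.65 at 0 h and 5.14, 5.04 and 5.29 at 72 h. All 72 h libraries lay above those of 0 h in both clones. With all libraries it was the only gene of the 14 called in the same direction in both shXBP1 clones at 72 h, and without replicate 3 of Cl.18 IFIT3 was called in both as well, as lower. The values of ANKRD37 were higher in both (0.79 ± 0.0933, adjusted p = 9.03e-05 in Cl.1 and 0.47 ± 0.0795, adjusted p = 0.00332 in Cl.18), and it was already higher at 24 h (0.56 ± 0.093, adjusted p = 0.00113 and 0.43 ± 0.0794, adjusted p = 0.0133). Without replicate 3 the 72 h rise in Cl.18 was 0.39 ± 0.0726, adjusted p = 0.00422, and the response in Cl.18 minus that in Cl.1 was then -0.40 ± 0.121 (adjusted p = 0.0273). The gene, at chr4:185396021-185400628 on the + strand, overlaps UFSP2 on the opposite strand, whose 48 h changes were -0.10 and -0.55.

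More hypoxia and glycolysis genes were lower than higher in the shIRE1 clones. Of 25 others tested in the glycolysis and hypoxia list, 15 were lower and 5 higher in shIRE1 Cl.1 at 48 h, and 18 lower and 3 higher in Cl.3, against 31.5% lower and 33.9% higher of all genes in Cl.1 and 31.6% each way in Cl.3. VEGFA, the angiogenic growth factor, fell in both (-0.83 ± 0.0466, adjusted p = 1.28e-11 and -1.63 ± 0.0665, adjusted p = 2.17e-11), and so did P4HA1, a collagen prolyl hydroxylase (-0.66 ± 0.0514, adjusted p = 1.41e-09 and -1.26 ± 0.0675, adjusted p = 4.07e-10), and NDRG1, a hypoxia- and stress-induced gene (-0.62 ± 0.0546, adjusted p = 8.67e-09 and -1.48 ± 0.0668, adjusted p = 6.07e-11). BNIP3L, a mitophagy receptor, rose in Cl.1 and fell in Cl.3 (0.34 ± 0.0596, adjusted p = 6.79e-05 and -0.49 ± 0.0601, adjusted p = 3.96e-06). At 48 h 7 of the others were lower and 7 higher of 25 in shXBP1 Cl.1, and 0 lower and 11 higher of 26 in Cl.18. Of all genes at that time, 15.5% were lower and 16.6% higher in Cl.1, and 3.5% and 2.28% in Cl.18. At 72 h in the shXBP1 clones 3 of the others were lower and 12 higher of 25 in Cl.1, and 0 lower and 12 higher of 26 in Cl.18 (0 and 15 without replicate 3), against 16.8% of all genes each way in Cl.1 and 5.55% lower and 4.41% higher in Cl.18. BNIP3L and NDRG1 were among those that rose in both (0.94 ± 0.113, adjusted p = 9.3e-05 and 0.70 ± 0.0715, adjusted p = 4.92e-05 for BNIP3L, 0.48 ± 0.076, adjusted p = 0.000656 and 0.54 ± 0.109, adjusted p = 0.0096 for NDRG1). Without replicate 3 the Cl.18 values were 0.72 ± 0.0733, adjusted p = 1.95e-05 for BNIP3L and 0.70 ± 0.0539, adjusted p = 1.28e-06 for NDRG1.

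Of the B-lineage genes, SPIB fell with little spread between libraries. Its log2 CPM in shIRE1 Cl.1 was 4.58, 4.66 and 4.58 at 0 h, 4.36, 4.41 and 4.32 at 24 h, 3.54, 3.43 and 3.35 at 48 h and 3.15, 3.16 and 3.19 at 72 h. In Cl.3 it was 4.30, 4.10 and 4.13 at 0 h, 4.07, 4.02 and 4.04 at 24 h, 2.47, 2.82 and 2.80 at 48 h and 2.63, 2.84 and 2.50 at 72 h. In both clones the 24 h libraries were already slightly below those of 0 h, a mean of -0.24 and -0.13 that the band admits, before the fall of -1.17 and -1.48 at 48 h. In the shXBP1 clones the 72 h values were 5.42, 5.32 and 5.28 against 5.26, 5.15 and 5.27 at 0 h in Cl.1, and 5.47, 5.33 and 5.18 against 5.62, 5.56 and 5.44 in Cl.18. Neither change passed the test (0.12 ± 0.0662, adjusted p = 0.20 and -0.21 ± 0.0776, adjusted p = 0.102, and in Cl.18 without replicate 3 -0.14 ± 0.0736, adjusted p = 0.273), although they differed from each other (-0.31 ± 0.103 (adjusted p = 0.0358) lower in Cl.18), a difference that did not pass without replicate 3 (-0.26 ± 0.0962 (adjusted p = 0.0733)). Of 27 other plasma cell and B cell identity genes tested, 9 were lower and 12 higher in shIRE1 Cl.1 at 48 h, and 14 lower and 8 higher in Cl.3 (all genes: 31.5% and 33.9% in Cl.1, 31.6% each way in Cl.3). The list median was -0.02 in Cl.1 and -0.58 in Cl.3. PRDM1, the plasma cell repressor BLIMP1, fell in both (-1.01 ± 0.0367, adjusted p = 2.87e-14 and -0.84 ± 0.0457, adjusted p = 4.99e-10), and POU2AF1, a coactivator of immunoglobulin genes, rose in both (0.41 ± 0.0369, adjusted p = 1.1e-08 and 0.79 ± 0.0617, adjusted p = 2.93e-08). At 72 h 5 of 27 were lower and 11 higher in shXBP1 Cl.1, and 8 of 26 lower and 0 higher in Cl.18 (7 and 1 without replicate 3), where 16.8% of all genes were called each way in Cl.1 and 5.55% lower and 4.41% higher in Cl.18.

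IGKV3-20 fell with the kappa light chain at large. Its log2 CPM in shIRE1 Cl.1 was 4.55, 4.58 and 4.63 at 0 h, 4.41, 4.42 and 4.44 at 24 h and 3.40, 3.44 and 3.34 at 48 h, and in Cl.3 5.24, 5.02 and 5.09, then 4.43, 4.86 and 5.16, then 3.12, 3.43 and 3.06. Every 48 h library lay below every earlier one, and the first 24 h value of Cl.3, from the library that resembled Cl.1, was the lowest of its group. The 48 h change was -1.19 and -1.91. The constant segment IGKC changed by -1.21 in Cl.1 and -2.49 in Cl.3, and IGKV3D-20, the near-identical distal copy of the segment, by -1.36 and -2.79. In Cl.3 these 2 had already fallen at 24 h, by 0.65 and 0.91, against -0.30 for IGKV3-20. Reads of 50 bases can be split between the copies, so the count of IGKV3-20, and with it its place inside the 24 h band, is uncertain. In shXBP1 Cl.1 it rose at 72 h (0.65 ± 0.23, adjusted p = 0.0454), while in Cl.18 no change passed the test (72 h: -0.20 ± 0.206, adjusted p = 0.571, and -0.06 ± 0.204, adjusted p = 0.898 without replicate 3). The rise in Cl.1 is close to the threshold and was lost in 7 of 12 fits with 1 library left out, among them each fit without a library of 0 or 72 h.

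Of the genes in receptor signalling, SPRY2 fell by 48 h and partly recovered. Its log2 CPM in shIRE1 Cl.1 was 1.91, 2.04 and 1.91 at 0 h, 1.78, 1.86 and 1.87 at 24 h, 1.12, 1.10 and 1.17 at 48 h and 1.61, 1.65 and 1.53 at 72 h. In Cl.3 it was 2.24, 2.13 and 2.37 at 0 h, 2.42, 2.25 and 2.39 at 24 h, 0.92, 0.62 and 0.98 at 48 h and 1.18, 1.48 and 1.10 at 72 h. The 48 h change of -0.82 in Cl.1 had shrunk to -0.36 at 72 h, with all 72 h libraries between those of 48 h and 0 h, and in Cl.3 -1.41 had become -0.995. In shXBP1 Cl.1 SPRY2 rose (0.27 ± 0.0899, adjusted p = 0.0375 at 48 h and 0.34 ± 0.0896, adjusted p = 0.0124 at 72 h). The 48 h call was lost in 5 of 12 fits with 1 library left out (0 h replicate 1 or 2, 48 h replicate 1 or 2, or 72 h replicate 3), and adjusted p was 0.0718 by DESeq2 and, by edgeR, 0.161 with no filter and 0.0824 with 6 libraries. In shXBP1 Cl.18 it was 0.97, 1.05 and 1.06 at 0 h, 1.58, 1.52 and 1.44 at 48 h and 1.20, 1.53 and 3.15 at 72 h, and the last value, again from replicate 3, lay within the range of Cl.1 at 72 h, where the libraries held 3.16, 3.05 and 3.12. The 72 h estimate in Cl.18 was 1.25 ± 0.404, adjusted p = 0.0669 with replicate 3 and 0.34 ± 0.167, adjusted p = 0.243 without it, and the 48 h rise passed the test only without it (0.48 ± 0.422, adjusted p = 0.571 with and 0.48 ± 0.149, adjusted p = 0.0464 without). SPRY1 and SPRY4, feedback inhibitors of the same family, also fell in both shIRE1 clones at 48 h (-0.78 ± 0.0683, adjusted p = 8.69e-09 and -0.46 ± 0.0929, adjusted p = 0.000552 for SPRY1, -0.35 ± 0.0674, adjusted p = 0.00017 and -1.18 ± 0.0813, adjusted p = 7.15e-09 for SPRY4). Of 6 other SPRY and SPRED genes tested 2 were lower and 3 higher in Cl.1, and 2 lower and 2 higher in Cl.3. Of the other 38 growth signalling kinases and phosphatases tested, 17 were lower and 13 higher in shIRE1 Cl.1 at 48 h and 14 lower and 13 higher in Cl.3. For both groups the share of all genes was 31.5% lower and 33.9% higher in Cl.1, and 31.6% each way in Cl.3. At 72 h 6 of 37 growth signalling genes were lower and 15 higher in shXBP1 Cl.1 (all genes: 16.8% each way). In shXBP1 Cl.18 1 of 39 was lower and 6 higher, and 2 and 6 without replicate 3 (all genes: 5.55% lower, 4.41% higher, and 4.48% and 3.09% without replicate 3).

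FZD4 rose in shXBP1 Cl.1 and not detectably in Cl.18. In shIRE1 Cl.1 it was 1.90, 2.04 and 2.02 log2 CPM at 0 h, 2.12, 2.10 and 2.27 at 24 h and 1.32, 1.10 and 1.12 at 48 h, and in Cl.3 2.23, 2.20 and 2.36, then 1.96, 2.03 and 1.99, then 1.26, 1.32 and 1.24. All 24 h libraries lay slightly above those of 0 h in Cl.1 and slightly below in Cl.3, and all 48 h libraries lay below both. In shXBP1 Cl.1 it was 1.28, 1.66 and 1.64 at 0 h and 2.36, 2.29 and 2.36 at 48 h, without overlap (0.82 ± 0.129, adjusted p = 0.000731), and the rise remained at 72 h (0.75 ± 0.129, adjusted p = 0.00118). In Cl.18 it was 1.86, 1.95 and 2.12 and 2.10, 2.21 and 2.15 (0.17 ± 0.122, adjusted p = 0.491). The 48 h response was lower in Cl.18 by -0.64 ± 0.168 (adjusted p = 0.0109), and by -0.65 ± 0.164 (adjusted p = 0.00725) without replicate 3. At 72 h all libraries of Cl.18 lay above those of 0 h, but the change did not pass the test (0.27 ± 0.121, adjusted p = 0.167). The clone difference at 72 h missed the threshold (-0.47 ± 0.167, adjusted p = 0.0533), also without replicate 3 (-0.45 ± 0.173, adjusted p = 0.0810). Its relative FZD5 fell in both shIRE1 clones at 48 h (-1.09 ± 0.0856, adjusted p = 1.73e-09 and -0.96 ± 0.123, adjusted p = 6.52e-06) but had fallen at 24 h already, by 0.78 and 0.64.

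SH2B2 fell in shXBP1 Cl.1 as well, on a spread of 0 h values. In shIRE1 Cl.1 it was 6.55, 6.66 and 6.91 log2 CPM at 0 h and 6.13, 5.85 and 5.71 at 48 h, and in Cl.3 6.51, 6.36 and 6.64 and 5.62, 5.54 and 5.59. All 48 h libraries lay below those of 0 h, by a mean of 0.81 in Cl.1 and 0.92 in Cl.3, close to the threshold of the rule. In shXBP1 Cl.1 the 0 h libraries held 8.21, 7.45 and 7.36, those of 24 h 6.66, 7.39 and 7.01, those of 48 h 7.08, 6.55 and 6.97 and those of 72 h 7.08, 6.75 and 6.81. Replicate 1 of 0 h stood above the other two, and the change passed the test at all 3 times with it (-0.68 ± 0.231, adjusted p = 0.0486, -0.84 ± 0.232, adjusted p = 0.0169 and -0.84 ± 0.232, adjusted p = 0.0164) and at none without it (edgeR adjusted p 0.235, 0.0732 and 0.0737). The 24 h call was lost in 9 of 12 fits with 1 library left out, the 48 h call also without 48 h replicate 2, and the 72 h call also without 72 h replicate 2 or 3. In shXBP1 Cl.18 the values were 7.13, 6.98 and 6.98 at 0 h and 7.05, 7.03 and 7.33 at 48 h (0.10 ± 0.138, adjusted p = 0.738), and the 48 h response was higher than in Cl.1 by 0.97 ± 0.294 (adjusted p = 0.0249). Of the other adaptors of the family, SH2B1 and SH2B3, 0 were lower in the shIRE1 clones at 48 h, 2 were higher in Cl.1 and 1 in Cl.3 (all genes: 31.5% lower and 33.9% higher in Cl.1, 31.6% each way in Cl.3).

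The remaining genes are structural, metabolic or of unknown role. MYH11 was thinly covered, at 14 to 99 reads per library. In shIRE1 Cl.1 its log2 CPM was 1.20, 1.00 and 1.02 at 0 h and -0.36, -0.15 and 0.06 at 48 h, and in Cl.3 1.09, 1.18 and 1.21 and -0.55, -0.30 and -0.19. The 48 h change was -1.22 and -1.50, without overlap between the libraries, and the overlapping gene NDE1 on the opposite strand changed by -0.29 and -0.34. The myosin II heavy chains of non-muscle cells moved less or upwards at 48 h (0.11 ± 0.0574, adjusted p = 0.0886 in Cl.1 and 0.85 ± 0.147, adjusted p = 0.00014 in Cl.3 for MYH9, -0.14 ± 0.045, adjusted p = 0.0109 and 0.12 ± 0.0954, adjusted p = 0.274 for MYH10). MMP15 changed by -0.86 in Cl.1 and -0.84 in Cl.3 at 48 h after a rise at 24 h of 0.12 and 0.33. SLC16A14 changed by -0.84 and -1.17 with little spread, from 6.35, 6.33 and 6.33 at 0 h to 5.48, 5.46 and 5.56 at 48 h in Cl.1 and from 6.15 to 6.29 at 0 h to 4.97 to 5.13 at 48 h over the Cl.3 libraries, and it rose in shXBP1 Cl.1 (0.29 ± 0.0542, adjusted p = 0.00193 at 72 h) and did not pass the test in Cl.18 (0.29 ± 0.0894, adjusted p = 0.0594, and 0.15 ± 0.0593, adjusted p = 0.147 without replicate 3). Of 9 other SLC16 transporters tested, 5 were lower in each shIRE1 clone at 48 h, with 3 higher in Cl.1 and 2 in Cl.3 (all genes: 31.5% lower and 33.9% higher in Cl.1, 31.6% each way in Cl.3). LNP1 changed by -0.81 and -1.24, and AL163051.2 by -1.06 and -0.92 at 34 to 107 reads per library.

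CYP51A1P2 changed by -0.83 and -1.04 at 48 h. Its parent CYP51A1, a step of cholesterol synthesis, fell alongside (-0.74 ± 0.0502, adjusted p = 2.26e-10 in Cl.1 and -1.53 ± 0.0519, adjusted p = 3.27e-12 in Cl.3), and so did CYP51A1P1, another pseudogene, by 0.76 and 1.36. Parent and copies are near-identical in sequence, so reads counted for the pseudogene may come from CYP51A1 and its own level is uncertain. In shXBP1 Cl.18 at 72 h the 2 again moved together: CYP51A1 fell (-0.40 ± 0.092, adjusted p = 0.019) and CYP51A1P2 missed the threshold (-0.38 ± 0.117, adjusted p = 0.0569). Without replicate 3 the values were -0.28 ± 0.0678, adjusted p = 0.0202 for CYP51A1 and -0.25 ± 0.0941, adjusted p = 0.134 for CYP51A1P2. The response of CYP51A1P2 at 72 h was lower in Cl.18 than in Cl.1 by -0.47 ± 0.151 (adjusted p = 0.0334), which was not past the threshold without replicate 3 (-0.34 ± 0.124 (adjusted p = 0.0615)).

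Counted together, the 14 genes had no common fall in shXBP1 Cl.1, and in Cl.18 more of them lay below 0 than above it only at 72 h. Their median change at 24, 48 and 72 h was 0.17, 0.18 and 0.20 in Cl.1 and 0.11, 0.09 and -0.11 in Cl.18 (-0.14 at 72 h without replicate 3), against medians between -0.02 and 0.01 over the 11643 genes. In Cl.18 at 72 h 10 of the 14 lay below 0, and 9 without replicate 3. In shXBP1 Cl.1, 2 of the 14 were lower and 3 higher at 24 h (all genes tested: 12.8% lower, 13.9% higher), 2 and 4 at 48 h (15.5% and 16.6%), and 2 and 5 at 72 h (16.8% and 16.8%). The lower genes were IFIT3 and SH2B2 each time. The higher ones were ANKRD37, FZD4 and SLC16A14, joined by SPRY2 at 48 h and by IGKV3-20 at 72 h. The share called lower was thus close to that of all genes, and the share called higher was above it. In shXBP1 Cl.18 fewer genes of any kind were called, and of the 14 only ANKRD37 was, as higher, at 24 h (all genes: 1.3% lower, 0.291% higher), 48 h (3.5% and 2.28%) and 72 h (5.55% and 4.41%). Lower calls there numbered 0 by edgeR at each time, while 1, 2 and 7 of the 14 genes had an unadjusted p under 0.05 in either direction, and DESeq2 called 1 lower and 3 higher at 72 h. Without replicate 3, IFIT3 was lower and ANKRD37 higher at 72 h (4.48% lower and 3.09% higher of all genes). The response differed between the shXBP1 clones for 2 of the 14 genes at 48 h (all genes: 19.3%), FZD4 and SH2B2, and for 2 at 72 h (20.3%), CYP51A1P2 and SPIB. The 24, 48 and 72 h comparisons of a clone share its 0 h libraries and are not independent of each other.

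**Figure D3:**
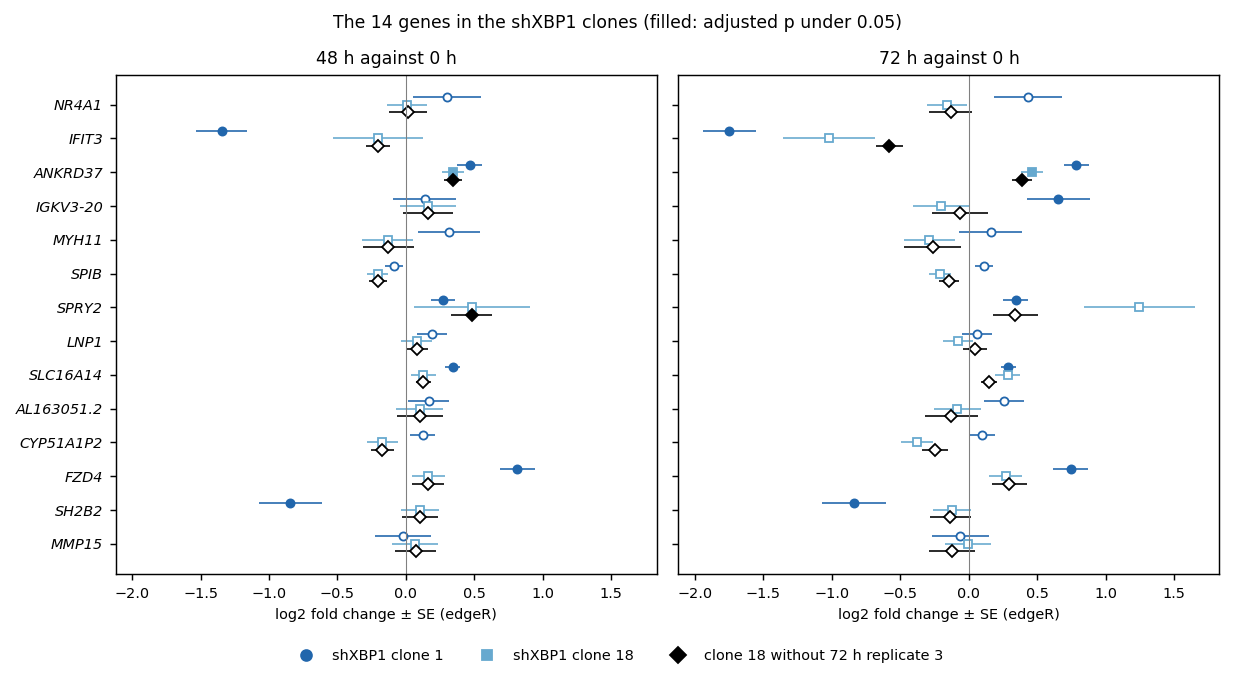
Log2 fold change against 0 h (x axis, with standard error bars) of the 14 genes in shXBP1 Cl.1 (circles), Cl.18 (squares) and Cl.18 without 72 h replicate 3 (diamonds), at 48 h (left) and 72 h (right), by edgeR with 3 libraries per group (2 for the diamonds at 72 h). Filled symbols have an adjusted p under 0.05. IFIT3 and SH2B2 lie left of 0 in Cl.1, ANKRD37 lies right of 0 and filled in each fit, and leaving out replicate 3 moves SPRY2 at 72 h from 1.25 to 0.34.

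The gene lists of myeloma biology held few of the 14 genes. Of 21 lists, 4 held 1 each (IFIT3, ANKRD37, SPIB and SPRY2), and the lists of ER chaperones, ER-associated degradation, translocation and glycosylation, vesicle traffic, DNA replication and mitosis held 0. The cell cycle lists had mostly fallen earlier: 31 of 33 mitosis genes and 27 of 40 S phase and DNA replication genes lay at or below -0.8 at both 24 and 48 h in both shIRE1 clones. In the ER lists fewer did, 2 of 20 genes of ER-associated degradation, 3 of 34 of translocation and N-glycosylation and 3 of 31 of vesicle traffic, while 3, 12 and 10 of them lay there at 48 h. Of 27 ER chaperones and folding enzymes, 15 lay there at 48 h and 4 at both times, and of these 15 none had stayed inside the 24 h band in both clones. ANKRD37 had 1 list gene below it of 26 in shIRE1 Cl.1 and 0 in Cl.3 at 48 h, against 22 and 18 in shXBP1 Cl.1 and Cl.18 at 72 h. SPRY2 had 4 and 0 below it of 37 in the shIRE1 clones, and 28 and 36 in the shXBP1 clones, where the Cl.18 value rests on replicate 3. Among the 23 genes of its list above the 0 h minimum, IFIT3 lay lowest in all 4, with replicate 3 included in Cl.18. MX1, under that minimum, changed by -1.79 in Cl.18 at 72 h against -1.26 for IFIT3. Without replicate 3 the IFIT3 change in Cl.18 at 72 h was smaller, -0.58 by edgeR. The place of IFIT3 in its list without that library was not computed. The rule chose ANKRD37, SPRY2 and IFIT3 on the 48 h change, so their low positions in the shIRE1 clones are partly built in.

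**Figure D4:**
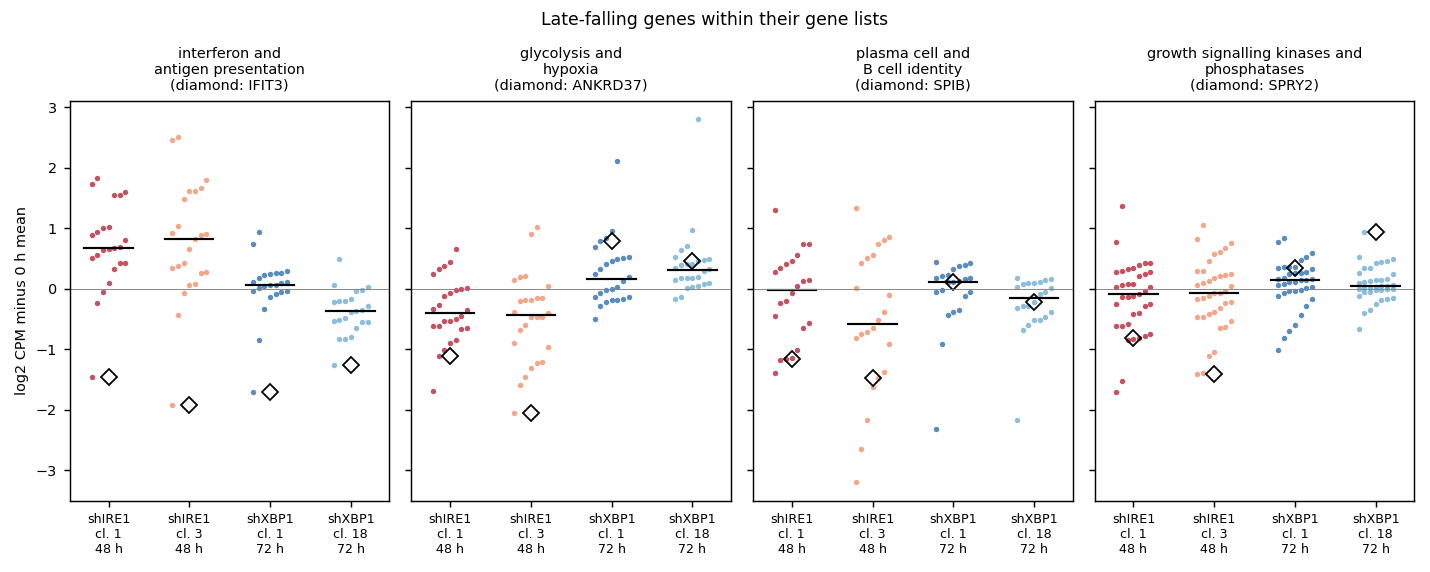
Each dot is a gene of the named list with a 0 h mean of at least 1 log2 CPM in both shIRE1 clones, and the y axis is its log2 CPM minus the 0 h mean, at 48 h for the shIRE1 clones and 72 h for the shXBP1 clones. Black bars are list medians and diamonds are the late-falling gene named above each panel. IFIT3 lies below every other gene shown of its list in all 4 clones. The 72 h values include the shXBP1 library that stood apart, and the place of IFIT3 without it was not computed. ANKRD37 lies below 0 in the shIRE1 clones and above the list median in the shXBP1 clones.

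The 14 genes lie on 10 chromosomes. Of the 13 found in GENCODE 44, 11 are protein-coding, and 5 overlap no other annotated gene. SPIB lies at chr19:50418938-50431314 (+) and overlaps another gene model on the same strand, which can take part of its reads. SPRY2 lies at chr13:80335976-80341126 (-), FZD4 at chr11:86945679-86955395 (-) opposite PRSS23, SH2B2 at chr7:102285091-102321711 (+) and IGKV3-20 at chr2:89142574-89143160 (-).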

How the data were processed

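RNA of 48 AMO1 libraries was sequenced as 50-base single reads after a stranded poly(A) preparation, with biological triplicates per clone and time. The authors deposited raw read counts per gene and a table of log2 CPM after TMM normalization. The submitters' processing notes name GSNAP, R 4.1.3, edgeR 3.32.1 and limma 3.46.0, with no role or order. The same notes name the build GRCh37/hg19, whereas the positions and sequences printed come from GENCODE 44 and RefSeq on GRCh38 and were matched by gene, not by coordinate. Use of strand in counting is not given in the sources used here. The log2 values were reproduced from the counts by edgeR with a prior count of 2, which shrinks changes of low genes. Columns of per-sample values that could not be mapped to a sample numbered 0.

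The rule was applied to the deposited log2 CPM. The shXBP1 clones were tested on the counts by edgeR's quasi-likelihood test (edgeR 4.0.16, R 4.3.3) on the 12 libraries of a clone, after TMM scaling and filterByExpr (minimum count 10, minimum total 15), with p-values adjusted by Benjamini-Hochberg over all genes tested and a threshold of 0.05. Values after ± are standard errors (3 libraries per group), and every adjusted p is from this test unless another tool is named. The clone difference was an interaction in a fit of the 24 shXBP1 libraries. Of 200 genes changed in simulated data (shXBP1 Cl.1, 48 h, 16343 genes), edgeR recovered 149 with 4 false calls. DESeq2 1.42.0 and limma 3.58.1 were alternatives.

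The genes and the lists were chosen with earlier results of these data known. Named with values are the 10 genes with the deepest mean 48 h fall, the 5 with the highest 0 h level, those called in both shXBP1 clones at 72 h, the 5 with the largest recovery from 48 to 72 h, the 3 nearest each side of the 48 h threshold, those in a gene list, and genes grouped by known function. Chosen after seeing the data were the gene families, the shIRE1 fits of other list genes, the motifs, the fits that drop replicate 3 of shXBP1 Cl.18 at 72 h, and single list genes named as examples. EGR1, NES, ERP44, MAFF and the overlapping genes were also named after their values were seen. The 0 h libraries serve every later comparison of a clone. The p-values measure the spread between flasks of a clone.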

Additional observations from a re-analysis of the deposited data

Results flagged for a closer look

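The response of 4 of the 14 genes differed between the shXBP1 clones by a test of the difference itself (edgeR, Cl.18 minus Cl.1, log2 scale, 24 libraries). At 48 h the difference was -0.64 for FZD4, which rose in Cl.1, and 0.97 for SH2B2, which fell in Cl.1. At 72 h it was -0.47 for CYP51A1P2 and -0.31 for SPIB, neither of which passed the test within a clone. Without shXBP1 Cl.18 72 h replicate 3 the 48 h differences of FZD4 and SH2B2 passed the test and the 72 h differences of CYP51A1P2 and SPIB did not (adjusted p = 0.0615 and 0.0733). In that fit differences also passed for IFIT3 (1.15) and SLC16A14 (-0.21) at 48 h and for IFIT3 (1.17) and ANKRD37 (-0.40) at 72 h. The SH2B2 difference shares with its fall in Cl.1 the high 0 h replicate 1 of that clone (8.21 log2 CPM against 7.45 and 7.36), whose part in it was not tested beyond leaving it out. Groups of 3 libraries are too small for a test of single outlying values.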

How the results depend on the processing

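The number of late-falling genes followed the thresholds: 44 at a 48 h threshold of -0.6 and 6 at -1, 6 with a 24 h band of 0.25 and 37 with 0.5, 7 with a 0 h minimum of 3, and 9 (7 of them among the 14) with log2 of the mean CPM plus 1. With 1 of the 18 libraries of the rule left out it ran from 11 to 16. ANKRD37, MYH11, SPIB and SLC16A14 met the rule in each of these 18 fits, and MMP15 missed it in 6. In shXBP1 Cl.1 the calls at 24 h numbered 3 with the 6 libraries compared alone, and with 1 library left out they ran from 4 to 5 at 24 h, 4 to 6 at 48 h and 5 to 7 at 72 h. In Cl.18 the calls at 48 h numbered 3 with 6 libraries, and those at 72 h numbered 5 with no filter on low counts and 4 with DESeq2. With 1 library left out they ran from 0 to 1 at 24 h, 0 to 2 at 48 h and 1 to 5 at 72 h. In Cl.18 ANKRD37 lost its 24 h call when replicate 2 or 3 of 0 h or replicate 3 of 24 h was dropped. It lost its 48 h call when replicate 2 or 3 of 0 h or replicate 1 or 2 of 48 h was dropped. The 72 h count was 5 without 72 h replicate 1 or 2 and 2 without replicate 3. Responses that differed between the shXBP1 clones at 72 h numbered 4 with no filter and 7 with all 48 libraries in the fit, and with 1 library left out they ran from 1 to 4 at 48 h and 0 to 4 at 72 h (0 without Cl.18 0 h replicate 2). The median of the 14 genes in Cl.18 at 72 h was -0.14 without replicate 3, an alternative chosen after seeing the data. The cause was not tested in any of these cases.

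Same-numbered replicates did not deviate together in a constant direction (correlations from -0.41 to 0.25 in shXBP1 Cl.1 and -0.14 to 0.10 in Cl.18), and the main fits did not pair them. Whether same-numbered flasks were handled together cannot be told from these correlations. With the replicate block the Cl.18 calls at 72 h numbered 2 and the clone differences at 72 h 1, and the calls of SH2B2 at 24 h, SPRY2 at 48 h and IGKV3-20 at 72 h in Cl.1 were lost. No result reversed. Of the 21 single-gene calls, DESeq2 lost 2, limma 1, no filter 1, 6 libraries 3 and DESeq2's size factors 0, and leaving out 1 library lost 37 of 252. With 3 libraries per group, small changes of thinly covered genes such as MYH11 were not detectable.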
